A study of Gallus gallus with 20 samples.

Results

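AP-1 is a family of dimeric transcription factors built from JUN, FOS, ATF and BATF proteins, and 8 of its genes were looked for in chicken macrophage-like cells given endotoxin. The members were JUN, JUND, FOS, FOSL2, ATF2, ATF3, ATF4 and BATF3, and a probe set belonged to the family when the array annotation gave it 1 of these gene names. There were 10 such probe sets for 7 genes, among 14688 genes named on the 38439 probe sets tested. ATF2 had 3 probe sets, ATF4 had 2, the other 5 genes had 1 each, and no probe set carried the name JUND. All 7 genes are listed under the same symbol in the RefSeq gene table for the assembly GRCg7b, and the transcript accession of 9 of the 10 probe sets led to the same gene there, ATF3 being the exception. In that table BATF3 and ATF3 have only 1 protein-coding gene between them.

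RNA came from HD11, a chicken line of macrophage character transformed by an avian retrovirus, so that both treatments share a growing, immortal cell. Endotoxin-treated cells received 1 μg/ml of a Salmonella typhimurium-798 (ST-798) preparation and vehicle-treated cells received 0 μg/ml, and RNA was collected after 1, 2, 4 or 8 hours (hours post stimulation, hps). Each time had 3 endotoxin-treated arrays, from replications 1 to 3, and 2 vehicle-treated arrays, from replications 1 and 2. In the section on RNA isolation and QPCR, the methods describe treatments on different days and RNA pooled from 3 flasks per treatment. If this holds for the arrays, the spread between arrays is that between pools of 1 cell line. Since a whole culture was measured, fewer cells that express a gene and less RNA per cell cannot be told apart.

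Levels are RMA values on the log2 scale, where a difference of 1 is a doubling. Differences are taken only within a probe set, because probe sets differ in how brightly they report a given amount of RNA. Where a level is set against the median of all probe sets, this is only a rough guide to brightness. A difference is endotoxin minus vehicle, or later minus earlier, and a probe set was called at a q value under 0.05 in a limma fit of all 20 arrays over all probe sets. In macrophages, recognition of endotoxin by Toll-like receptors activates the MAP kinases JNK, p38 and ERK. JNK phosphorylates JUN and ATF2 proteins that are already present, and the genes JUN, FOS and ATF3 are textbook immediate early genes, whose transcription starts within minutes and is often over within hours. JUN binds DNA as a dimer with itself or with a FOS, ATF or BATF partner, ATF3 often acts as a repressor that limits inflammatory genes in mouse macrophages, ATF4 drives the response to amino acid shortage and unfolded protein, and BATF3 is known from mouse as a factor that cross-presenting dendritic cells need.

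Macrophage markers gave signal in these cells, as did some markers of other cell types. Of 14 macrophage markers listed 12 were measured, and all 12 had a mean above the median signal of all probe sets, CSF1R, the receptor for macrophage growth factor, lying between 10.13 and 11.10 and SPI1, the myeloid master regulator, between 12.30 and 12.63. CD3E, a signalling subunit of the T cell receptor complex, lay between 3.50 and 3.95 on the 20 arrays. CD3D of the same complex lay between 6.50 and 6.82. Of the other marker lists, 2 of 6 T cell genes, 4 of 5 B cell genes, 1 of 2 erythroid genes and 2 of 4 fibroblast genes had means above that median, the highest being CD28 at 10.40. Some arrays stood apart. The signal of actin near its 3′ end minus that near its 5′ end was 0.35 and 0.22 on the vehicle-treated arrays at 4 hps, against -0.15 to 0.20 on endotoxin-treated arrays and -0.0018 to 0.11 on the other vehicle-treated arrays. On the first principal component, with 26.6% of the variance, endotoxin replication 3 had values of 32.1 at 1 hps and 33.6 at 2 hps. The vehicle-treated arrays at 4 hps had 24.4 and 14.7, and all others lay between -21.9 and 12.1. The vehicle-treated arrays at 8 hps were near the other end, at -17.1 and -21.9.

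JUN, the founding subunit of AP-1, was the only member called for endotoxin at 1 hps, the first time sampled. Whether members differed in when they responded was not tested. At 1 hps its level was 11.00, 10.58 and 10.21 in endotoxin-treated cells (replications 1 to 3), against 10.22 and 9.66 in vehicle-treated cells (replications 1 and 2). The array of replication 3 lay just under the higher vehicle-treated array, so the groups overlapped, but within a replication the endotoxin-treated array was higher by 0.78 and 0.92. The fitted difference was 0.75 ± 0.11 (SE), a fold of 1.68, with q = 0.0300. JUN was the only one of the 10 probe sets called at 1 hps, where 0.0364% of all probe sets were called higher.

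At 2 hps JUN stood at 10.20, 9.81 and 9.87 in endotoxin-treated cells, against 9.80 and 9.51 in vehicle-treated cells. All endotoxin-treated arrays lay above both vehicle-treated arrays, by a narrow margin, and the difference of 0.39 ± 0.11 was not called (q = 0.763, unadjusted p = 0.00352). At 4 hps JUN stood at 10.34, 10.05 and 10.04 in endotoxin-treated cells, against 9.92 and 9.57 in vehicle-treated cells. The groups were again separate, and JUN was called with a difference of 0.49 ± 0.11, a fold of 1.40 (q = 0.0185). At 8 hps its level was 10.58, 10.54 and 10.35 in endotoxin-treated cells, against 10.44 and 10.22 in vehicle-treated cells. Here the groups overlapped, and the difference of 0.25 ± 0.11 was not called (q = 0.926).

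The endotoxin effect on JUN was positive at every time in replications 1 and 2, between 0.14 and 0.92. Averaged over 1, 2 and 8 hps, the times whose vehicle-treated arrays did not stand apart on actin, it was 0.46 ± 0.069, a fold of 1.38 (q = 0.00488). This mean was chosen knowing that the vehicle-treated arrays at 4 hps stood apart. The endotoxin arrays of replication 3 at 1 and 2 hps, which had the highest values on the first principal component, are part of it. JUN was the only member called on this mean, beside 0.258% of all probe sets called higher. The effect at 1 hps exceeded that at 2 hps by 0.35 (95% interval 0.019 to 0.69, unadjusted p = 0.0398) and that at 8 hps by 0.50 (0.17 to 0.84, unadjusted p = 0.00599), but both had q = 1, so a decline of the effect was not established across all probe sets. Left without the replication term, the fit gave 0.66 at 1 hps (q = 0.999) and 0.37 for the mean (q = 0.483), and the calls were lost. Without the vehicle-treated arrays at 4 hps, which left the difference at 1 hps at 0.75, its q was 0.0526.

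**Figure D1:**
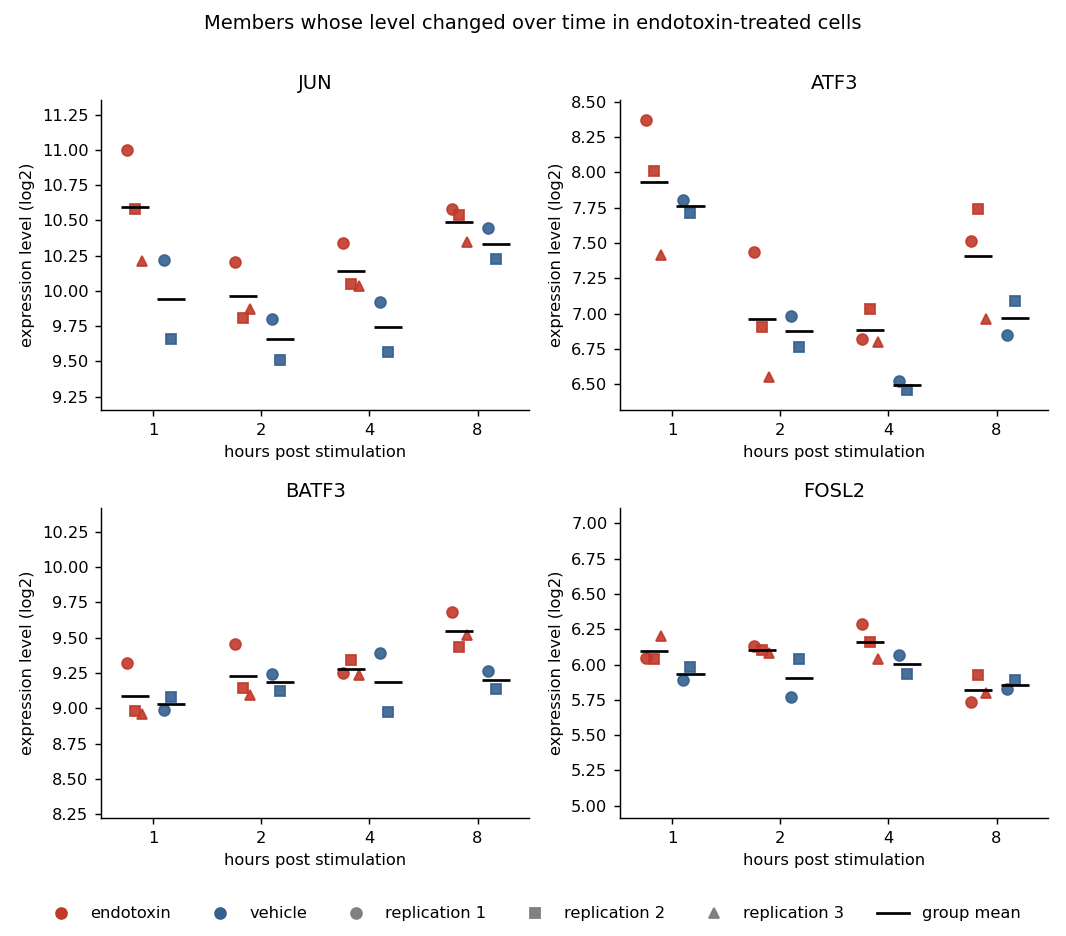
Level (log2, y axis) of JUN, ATF3, BATF3 and FOSL2 on each of the 20 arrays by hours post stimulation (x axis; 1, 2, 4 and 8), endotoxin in red left of vehicle in blue, with the marker shape giving the replication and the black line the group mean; all panels span the same log2 range. The means of JUN and of ATF3 are lower at 2 than at 1 hps in both treatments, and BATF3 in endotoxin-treated cells is highest at 8 hps, where its 3 arrays lie between 9.44 and 9.68.

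JUN also moved with time when no endotoxin was given. Its mean was 10.60 ± 0.39, 9.96 ± 0.21, 10.14 ± 0.17 and 10.49 ± 0.12 at 1, 2, 4 and 8 hps in endotoxin-treated cells (SD, n = 3), against 9.94 ± 0.39, 9.66 ± 0.20, 9.75 ± 0.25 and 10.33 ± 0.15 in vehicle-treated cells (SD, n = 2). The order of the 8 groups thus ran with endotoxin at 1 and 8 hps on top, vehicle at 8 hps next and vehicle at 4 and 2 hps at the bottom, and the arrays of each group overlapped those of its neighbour in this order. The change over time was called in endotoxin-treated cells (q = 0.00138) and in vehicle-treated cells (q = 0.0102). In endotoxin-treated cells JUN fell by 0.64 between 1 and 2 hps (q = 0.0142), a direction in which 0.146% of all probe sets were called. In vehicle-treated cells the same step was -0.28 ± 0.12 and was not called (q = 0.583). Between 4 and 8 hps the endotoxin-treated level differed by 0.35 ± 0.10 without a call (q = 0.102), and the vehicle-treated level was called higher by 0.59 ± 0.12 (q = 0.0183), beside 3.15% of all probe sets called higher in vehicle-treated cells. The difference between these steps was not called (q = 0.42). The vehicle-treated step uses the vehicle-treated arrays at 4 hps, and their part in it was not tested. At 8 hps the vehicle-treated level was 0.39 ± 0.12 above that of 1 hps without a call (q = 0.115).

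ATF3, a stress-induced factor of the same immediate early class, had the widest range over the 20 arrays among the 10 probe sets, 6.46 to 8.37. At 1 hps it stood at 8.37, 8.01 and 7.42 in endotoxin-treated cells, against 7.81 and 7.71 in vehicle-treated cells. By 2 hps the levels were 7.44, 6.91 and 6.55 in endotoxin-treated cells, against 6.99 and 6.76 in vehicle-treated cells. At both times the groups overlapped, with replication 3 the lowest of the 5 arrays, and the differences of 0.36 ± 0.17 and 0.27 ± 0.17 were not called (q = 1 for both). At 4 hps it stood at 6.82, 7.03 and 6.80 in endotoxin-treated cells, against 6.52 and 6.46 in vehicle-treated cells. The groups were separate and ATF3 was called, with a fitted difference of 0.58 ± 0.17 and a fold of 1.49 (q = 0.0408). Its Benjamini-Hochberg value was 0.0682, above the threshold. Within replications 1 and 2 the difference was 0.30 and 0.57, and the fit without the replication term gave 0.39. By 8 hps ATF3 had 7.52, 7.74 and 6.96 in endotoxin-treated cells, against 6.85 and 7.09 in vehicle-treated cells. The fitted difference there was 0.62 ± 0.17, with 0.67 and 0.65 in replications 1 and 2, and it was not called (q = 0.435, unadjusted p = 0.00272). The array of replication 3 lay between the vehicle-treated arrays. Across 1, 2 and 8 hps the mean difference was 0.42 ± 0.10 (q = 0.251).

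ATF3 was lower at 8 than at 1 hps both with and without endotoxin. Between 1 and 2 hps ATF3 fell by 0.97 in endotoxin-treated cells, to a fold of 0.51 (q = 0.0142), and the step was -0.88 ± 0.18 in vehicle-treated cells (q = 0.0954). The endotoxin effects at 1 and 2 hps differed by 0.085 (95% interval -0.42 to 0.59, unadjusted p = 0.728), an interval that leaves room for a sizeable difference in either direction. At 8 hps ATF3 was 0.53 lower than at 1 hps in endotoxin-treated cells (q = 0.0391) and 0.79 lower in vehicle-treated cells (q = 0.0363), where 2.52% and 0.567% of all probe sets were called lower. The change over time was called in endotoxin-treated cells (q = 0.000818) and in vehicle-treated cells (q = 0.00433). The vehicle-treated arrays at 4 hps held the lowest ATF3 levels of the whole series, 0.71 ± 0.15 under the other vehicle-treated arrays (q = 0.0183), beside 3.74% of all probe sets called lower in that comparison.

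BATF3, a partner of JUN proteins that lacks a transactivation domain of its own, had its highest mean late, at 8 hps with endotoxin. At 1 hps it stood at 9.32, 8.98 and 8.96 in endotoxin-treated cells, against 8.98 and 9.08 in vehicle-treated cells. At 2 hps the levels were 9.45, 9.14 and 9.10 in endotoxin-treated cells, against 9.25 and 9.12 in vehicle-treated cells. At 4 hps they were 9.25, 9.35 and 9.23 in endotoxin-treated cells, against 9.39 and 8.97 in vehicle-treated cells. The groups overlapped at these 3 times, and the differences were 0.095, 0.089 and 0.13, none called. At 8 hps BATF3 stood at 9.68, 9.44 and 9.52 in endotoxin-treated cells, against 9.26 and 9.14 in vehicle-treated cells. All endotoxin-treated arrays lay above the vehicle-treated ones, and the difference was 0.39 ± 0.11, a fold of 1.31, which was not called across all probe sets (q = 0.438, unadjusted p = 0.00281). Over time BATF3 changed in endotoxin-treated cells (q = 0.0169), rising by 0.46 ± 0.095 between 1 and 8 hps (q = 0.00721), a comparison with 3.99% of all probe sets called higher. In vehicle-treated cells the same comparison gave 0.17 ± 0.12 (q = 0.487). Its effect size at 1 hps less that at 8 hps was -0.29 (95% interval -0.61 to 0.027, unadjusted p = 0.0703, q = 1), so BATF3 was not shown to change more with endotoxin than without.

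Among the FOS proteins, which must pair with JUN to bind DNA, neither measured gene was called for endotoxin at any time. FOS itself gave a dim signal, 4.20 on average and below the median of 5.3 over all values, and its range over all 20 arrays was only 0.65. It stood at 4.36, 4.00 and 4.13 in endotoxin-treated cells at 1 hps, against 4.26 and 4.35 in vehicle-treated cells. Levels at 2 hps were 4.40, 4.17 and 3.85 in endotoxin-treated cells, against 4.21 and 4.02 in vehicle-treated cells. The groups overlapped at both times, as they did later. At 4 hps FOS stood at 4.18, 4.07 and 4.23 in endotoxin-treated cells, against 4.02 and 4.27 in vehicle-treated cells. Levels at 8 hps were 4.43, 4.50 and 4.18 in endotoxin-treated cells, against 4.16 and 4.22 in vehicle-treated cells. The differences were -0.080 ± 0.14, 0.081 ± 0.14, 0.074 ± 0.14 and 0.24 ± 0.14 at 1, 2, 4 and 8 hps, none called. The 95% interval at 1 hps ran between -0.37 and 0.21, and no time before 1 hps was analysed here.

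FOSL2, a FOS relative, stood at 6.04, 6.04 and 6.21 in endotoxin-treated cells at 1 hps, against 5.89 and 5.98 in vehicle-treated cells. Its 2 hps levels were 6.13, 6.10 and 6.08 in endotoxin-treated cells, against 5.77 and 6.04 in vehicle-treated cells. Every endotoxin-treated array exceeded both vehicle-treated arrays at these times, but the differences of 0.17 ± 0.10 and 0.21 ± 0.10 were not called. At 4 hps it stood at 6.29, 6.16 and 6.04 in endotoxin-treated cells, against 6.07 and 5.94 in vehicle-treated cells. Its 8 hps levels were 5.74, 5.93 and 5.80 in endotoxin-treated cells, against 5.83 and 5.89 in vehicle-treated cells, and the groups overlapped at both of these times. FOSL2 changed over time in endotoxin-treated cells (q = 0.0338), with its lowest mean at 8 hps, while no single step between sampled times was called, the 4 to 8 hps step being -0.34 ± 0.087 (q = 0.0688). In vehicle-treated cells the change over time had q = 0.386. The call in endotoxin-treated cells was lost without the replication term (q = 0.0539) and under Benjamini-Hochberg adjustment (q = 0.0705).

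ATF2, a target of JNK and p38 that pairs with JUN, had 3 probe sets that disagreed at 4 hps. The brightest, probe set 1, stood at 7.67, 7.49 and 7.35 in endotoxin-treated cells at 4 hps, against 7.49 and 7.40 in vehicle-treated cells. Probe set 3 stood at 6.86, 6.61 and 6.33 in endotoxin-treated cells, against 6.06 and 6.19 in vehicle-treated cells. Only probe set 3 separated the groups, and it was called with a difference of 0.58 ± 0.14, a fold of 1.49 (q = 0.0202). Probe sets 1 and 2 gave 0.090 ± 0.14 (q = 0.451) and 0.036 ± 0.11 (q = 0.527) for the same gene. At the other times probe set 3 stood at 6.47, 6.40 and 5.95 in endotoxin-treated cells at 1 hps, against 6.78 and 6.18 in vehicle-treated cells. At 2 hps it stood at 6.24, 6.35 and 6.26 in endotoxin-treated cells, all below the 6.50 and 6.45 of vehicle-treated cells. At 8 hps it stood at 6.64, 6.49 and 6.28 in endotoxin-treated cells, against 6.60 and 6.65 in vehicle-treated cells. The differences at these times were -0.11, -0.085 and -0.055, on the other side of 0 from that at 4 hps. The vehicle-treated arrays at 4 hps were among the lowest on this probe set, and vehicle-treated cells gained 0.50 ± 0.15 between 4 and 8 hps (q = 0.0487).

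Probe set 1 of ATF2 stood at 7.17, 7.66 and 7.15 in endotoxin-treated cells at 1 hps, against 7.18 and 7.20 in vehicle-treated cells. At 2 hps it stood at 7.04, 7.48 and 7.39 in endotoxin-treated cells, against 7.20 and 7.36 in vehicle-treated cells. At 8 hps it stood at 7.32, 7.34 and 7.33 in endotoxin-treated cells, against 7.54 and 7.42 in vehicle-treated cells. The endotoxin-treated arrays at 8 hps were all below the vehicle-treated ones, but the difference was -0.12 ± 0.14. Probe set 2 ranged between 6.25 and 7.03 over the 20 arrays, with differences between -0.079 and 0.082. At 2 hps its endotoxin-treated arrays were all below the vehicle-treated ones, by a very narrow margin. Neither probe set was called at any time or over time.

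ATF4, whose protein is made when translation is restrained, was represented by 2 probe sets with similar differences at 4 hps. Probe set 1 stood at 12.66, 12.55 and 12.57 in endotoxin-treated cells at 4 hps, against 12.38 and 12.32 in vehicle-treated cells. Probe set 2 stood at 10.68, 10.93 and 10.84 in endotoxin-treated cells, against 10.40 and 10.61 in vehicle-treated cells. The groups were separate on both, with differences of 0.24 ± 0.095 (q = 0.0945) and 0.28 ± 0.090 (q = 0.0489), so that only probe set 2 was called, close to the threshold. With Benjamini-Hochberg adjustment its value was 0.0816.

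At 1 hps probe set 1 of ATF4 stood at 12.37, 12.54 and 12.38 in endotoxin-treated cells, against 12.48 and 12.38 in vehicle-treated cells. At 2 hps this probe set had 12.26, 12.43 and 12.50 in endotoxin-treated cells, against 12.24 and 12.51 in vehicle-treated cells. At 8 hps this probe set had 12.45, 12.51 and 12.46 in endotoxin-treated cells, all below the 12.59 and 12.55 of vehicle-treated cells. The differences were -0.0016, 0.017 and -0.098, and the 95% intervals at 1 and 2 hps lay within -0.20 and 0.22.

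Probe set 2 of ATF4 stood at 10.61, 10.58 and 10.60 in endotoxin-treated cells at 1 hps, against 10.52 and 10.59 in vehicle-treated cells. At 2 hps it stood at 10.56, 10.70 and 10.82 in endotoxin-treated cells, against 10.53 and 10.90 in vehicle-treated cells. At 8 hps it stood at 10.68, 10.66 and 10.71 in endotoxin-treated cells, against 10.49 and 10.70 in vehicle-treated cells. The groups overlapped at these 3 times and the differences lay between -0.047 and 0.066.

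**Figure D2:**
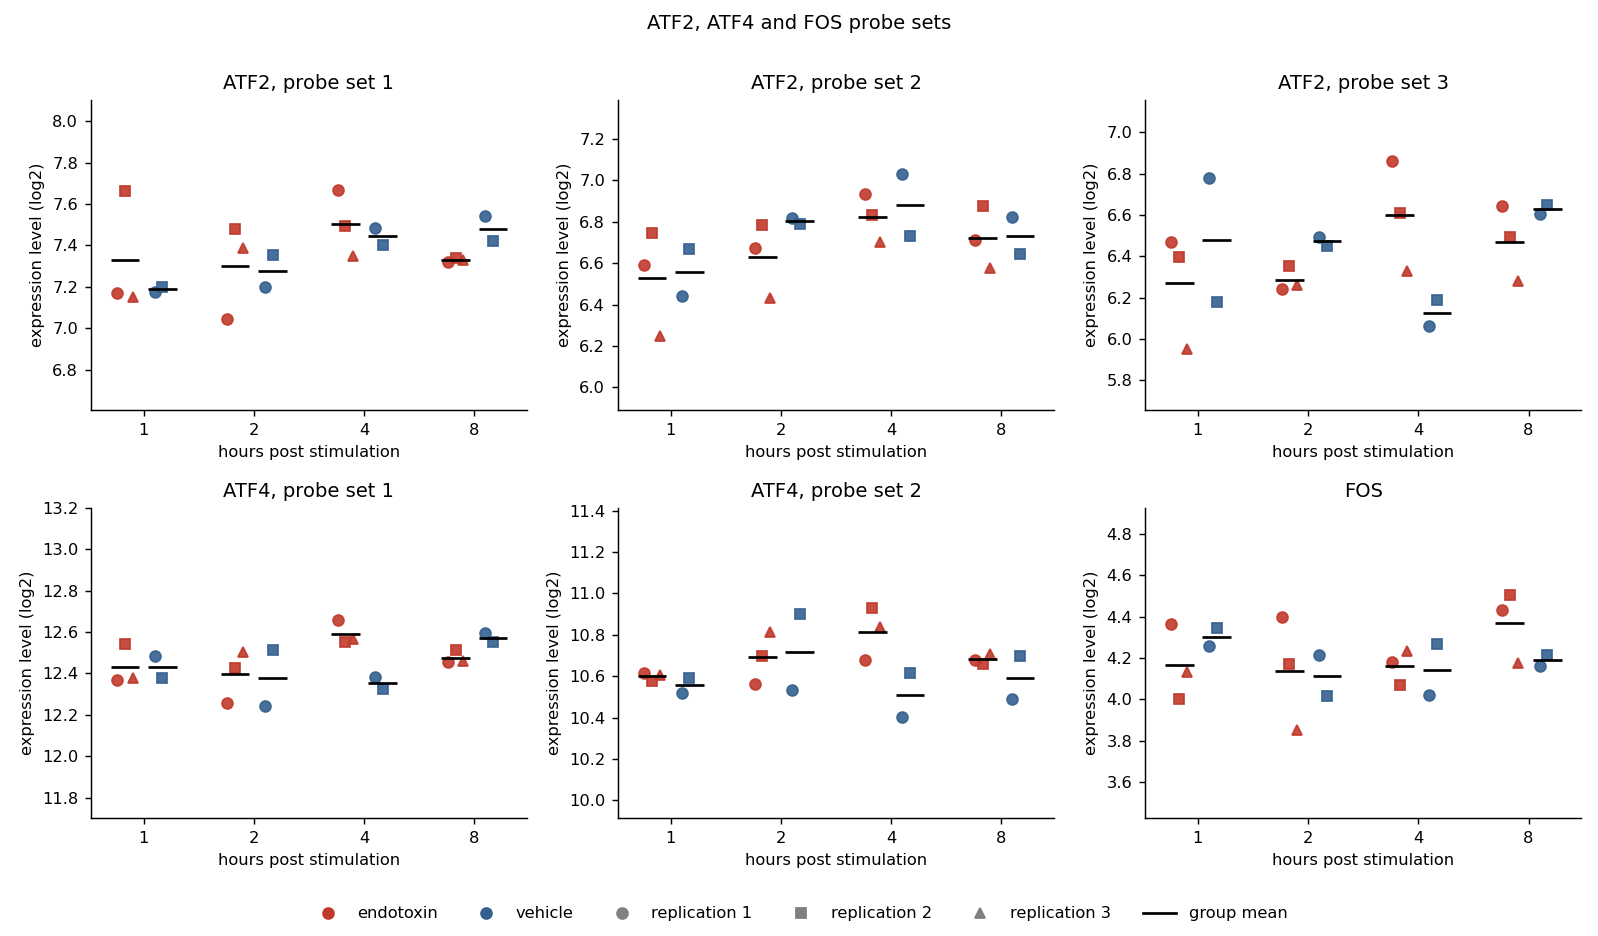
Level (log2, y axis) of the 3 ATF2 probe sets, the 2 ATF4 probe sets and FOS on each array by hours post stimulation (x axis; 1, 2, 4 and 8), endotoxin in red left of vehicle in blue, marker shape giving the replication and the black line the group mean. The panels span the same log2 range, and on probe set 3 of ATF2 the vehicle-treated arrays at 4 hps, at 6.06 and 6.19, lie under those at 2 and 8 hps.

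Set side by side, the 10 probe sets gave 1, 0, 4 and 0 calls at 1, 2, 4 and 8 hps, all higher with endotoxin. The 4 calls at 4 hps were JUN, ATF3, probe set 3 of ATF2 and probe set 2 of ATF4, beside 4.95% of all probe sets called higher and 3.13% called lower. Benjamini-Hochberg adjustment kept 2 of these calls, JUN and probe set 3 of ATF2, and called 1778 of all 38439 probe sets. Of the 10 probe sets 9 were among the brighter 19220. The shares over all probe sets, here and elsewhere, include the dim ones and are not matched to the members for signal. With 3 arrays against 2, groups that do not overlap carry little weight by themselves. They occurred in both directions among the members, and their share over all probe sets is not given here. At 2 and 8 hps 0.0806% and 0.148% of all probe sets were called higher in the limma fit, and no member was. Benjamini-Hochberg adjustment also called no member at those times. JUN at 2 hps and JUN, ATF3 and BATF3 at 8 hps had an unadjusted p under 0.05, beside 1663 and 2058 of all 38439 probe sets. The median difference over the 10 probe sets was 0.080, 0.069, 0.20 and 0.074 at 1, 2, 4 and 8 hps, beside -0.0028, -0.0019, -0.020 and -0.0032 over all probe sets.

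**Figure D3:**
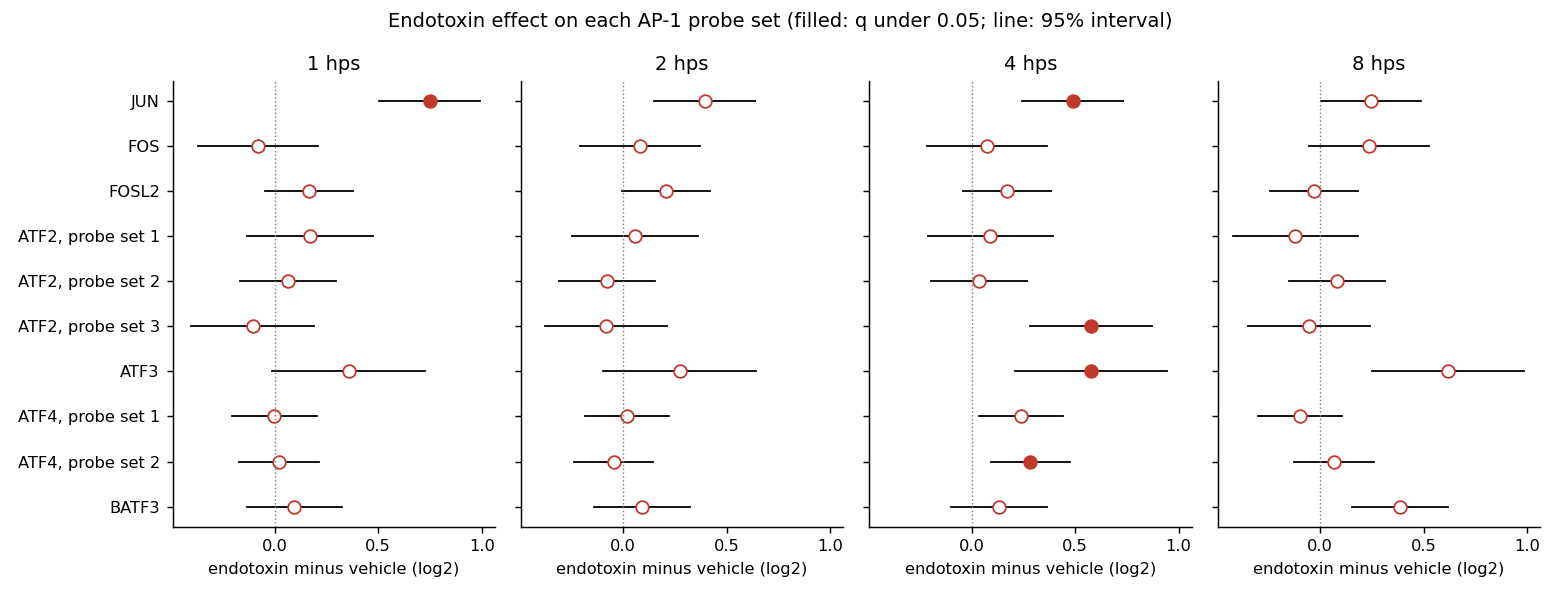
Endotoxin minus vehicle (log2, x axis) for each of the 10 AP-1 probe sets (rows) at 1, 2, 4 and 8 hps (panels), with the 95% interval of the limma fit as a line and filled circles for q under 0.05. JUN lies at 0.75, 0.39, 0.49 and 0.25, and FOS has 0 within its interval at every time.

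The calls at 4 hps depended on the vehicle-treated arrays they were set against. Those of 4 hps stood apart on actin and lay towards the high end of the first principal component. With vehicle of 1, 2 and 8 hps as the comparator, endotoxin-treated cells at 4 hps showed JUN at 0.26 ± 0.090 (q = 0.177), probe set 3 of ATF2 at 0.17 ± 0.11 (q = 0.436), probe set 2 of ATF4 at 0.17 ± 0.071 (q = 0.253) and ATF3 at -0.13 ± 0.14 (q = 0.590). None of the 10 probe sets was called in that limma comparison, by q or by Benjamini-Hochberg adjustment, beside 0.645% of all probe sets called higher. An unadjusted p under 0.05 was found for 4 of the 10 and for 4847 of all 38439 probe sets. FOSL2 had the lowest q there, at 0.103, with a difference of 0.27 ± 0.078. ATF3 thus stood higher than its own time's vehicle and not higher than vehicle of the other times, a reference that mixes the high ATF3 level of 1 hps with the low one of 2 hps. For JUN too the reference mixes times, since its vehicle-treated means were 9.94, 9.66 and 10.33 at 1, 2 and 8 hps. At 4 hps the vehicle-treated mean of JUN was 9.75, above that of 2 hps. It differed from the vehicle-treated level of the other times by -0.23 ± 0.10, without a call (q = 0.127). The replication term also mattered at 4 hps, since without it none of the 4 was called, with q between 0.181 and 0.384.

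**Figure D4:**
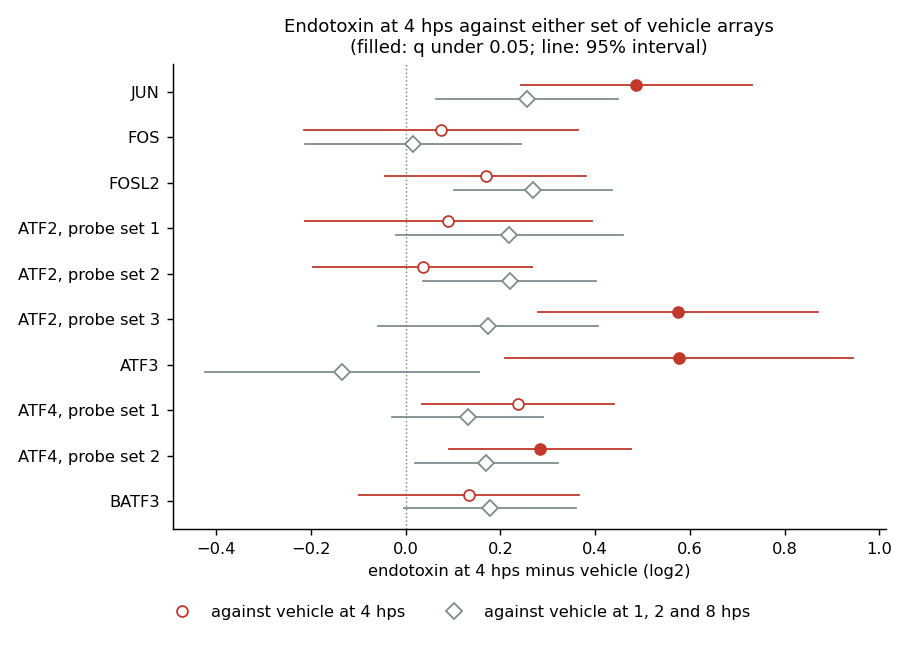
Endotoxin at 4 hps minus vehicle (log2, x axis) for the 10 AP-1 probe sets (rows), against the vehicle-treated arrays at 4 hps (red circles) and against those at 1, 2 and 8 hps (grey diamonds), lines being 95% intervals and filled symbols q under 0.05. The 4 filled red circles have no filled grey counterpart, and ATF3 is at 0.58 against the first set and -0.13 against the other.

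Whether the endotoxin effect changed with time was tested directly. No member passed for the interaction of dose and time in limma, nor did any other probe set (0% called by q or by Benjamini-Hochberg adjustment). Probe set 3 of ATF2 (q = 0.22) and JUN (q = 0.31) had an unadjusted p under 0.05, as did 4409 of all 38439 probe sets. Change over time within a treatment was called for 4 of the 10 probe sets in endotoxin-treated cells, JUN, ATF3, BATF3 and FOSL2, beside 10.9% of all probe sets. In vehicle-treated cells it was called for JUN and ATF3, beside 7.55% of all probe sets. Without the replication 3 endotoxin arrays of 1 and 2 hps, BATF3 (q = 0.122) and FOSL2 (q = 0.0928) were no longer called in endotoxin-treated cells.

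The genes whose 8 group means followed those of JUN most closely were SPAG9, PAFAH2, PLIN, XRN1 and CHD4, with Pearson correlations between 0.917 and 0.956 over the 8 group means of dose and time. Their group means spanned only 0.13 to 0.56, against 0.94 for JUN. Apart from PAFAH2 their mean signals lay below the median of 5.3 over all values, at 2.71 for SPAG9, 3.33 for XRN1, 4.45 for CHD4 and 4.59 for PLIN, SPAG9 being at percentile 0.9 and XRN1 at percentile 11.7 of all probe sets. ATF3, the most like JUN among the members, had a correlation of 0.61. These groups share arrays and normalization, and the correlations are descriptions.

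Of 11 further JUN, FOS, ATF and BATF relatives listed, 5 were measured, namely ATF1, ATF6, ATF7, BATF and JDP2. A listed gene counts as measured when some probe set carries its name alone. No probe set did so for JUNB, FOSB or FOSL1, so no further JUN or FOS gene was among the 5. None of the 5 was called at any time for endotoxin in limma by q. At 4 hps 2 had an unadjusted p under 0.05, beside 8594 of all 38439 probe sets, and none had at the other times. JDP2, a repressor that dimerizes with JUN and was picked out after its values were seen, changed over time in endotoxin-treated cells (q = 0.000834) and in vehicle-treated cells (q = 0.0376). A further list held genes named for the CREB, MAF, CNC, BACH and C/EBP families and some related factors, 22 of them measured. Of these, 1 was called for endotoxin at any time, CREB1, a cyclic AMP and kinase responsive activator, with 0.58 ± 0.10 at 4 hps (q = 0.00640), and 2 had some probe set called then. At 4 hps 4.80% of all genes were called higher on their brightest probe set and 10.3% on some probe set, so these counts were near the share over all genes. Against vehicle of the other times CREB1 was 0.33 ± 0.080 (q = 0.0524).

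For endotoxin, the kinases above AP-1 were called at 4 hps and at no other single time. Of 23 measured, 3 were called higher there on their brightest probe set, at a time when 4.80% of all 13782 genes with a probe set of their own were. The 3 were MAP3K5, which activates JNK and p38 under stress, higher by 0.41 ± 0.086 (q = 0.0129), MAP3K3 by 0.39 ± 0.11 (q = 0.0295) and RPS6KA5, a histone kinase below p38 and ERK, by 0.63 ± 0.18 (q = 0.0340). None was called lower. Some probe set was called higher for 8 of the 23, beside 10.3% of all genes, without regard to how many probe sets a gene had. Against vehicle of the other times the same 3 kinases were at 0.19, 0.023 and 0.074, none called. A list of regulators, 9 of them measured, held factors that switch on JUN and FOS transcription or regulate their proteins. Among these, COPS5, a JUN coactivator of the COP9 signalosome, was lower at 4 hps, at -0.24 ± 0.077 (q = 0.0482), beside 3.57% of all genes called lower. Against vehicle of the other times COPS5 stood at -0.097 (q = 0.435). Of these 9, 3 had some probe set called higher at 4 hps and 1 had one called lower, beside 10.3% and 5.34% of all genes. The median differences at 4 hps were -0.048 for the measured relatives (ATF1, ATF6, ATF7, BATF and JDP2) and 0.095 for the list with the CREB, MAF and C/EBP genes. They were 0.048 for the kinases and 0.056 for the regulators, beside -0.020 over all probe sets.

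A list from general knowledge held genes known as AP-1 targets in mammals, and no chicken promoter was examined. Of its 18 measured genes, 3, 3, 4 and 4 were called higher at 1, 2, 4 and 8 hps on their brightest probe set and none lower. Over all probe sets 0.0364%, 0.0806%, 4.95% and 0.148% were called higher, and at 4 hps 4.80% of all genes were on their brightest probe set. The list was chosen with earlier results of these data known, so these counts do not test whether AP-1 targets respond as a class. At 4 hps 5 of the 18 had some probe set called higher and 1 had one called lower, beside 10.3% and 5.34% of all genes. Most of the list was not called, with list medians of 0.055, 0.085, 0.13 and 0.19. CCL4, a chemokine, was higher by 2.53 ± 0.28, 2.40 ± 0.28, 2.36 ± 0.28 and 2.09 ± 0.28 at 1, 2, 4 and 8 hps. IL8, another chemokine, was higher by 1.57, 1.51, 1.35 and 1.43, and IL1B, the inflammatory cytokine, by 1.10, 0.96, 1.24 and 1.37, called at all 4 times. MMP1, a collagenase, differed by 0.22 and 0.25 without a call at 1 and 2 hps and was called at 4 and 8 hps, at 0.76 ± 0.086 and 0.84 ± 0.086. Its change over time was called in vehicle-treated cells (q = 0.00233) and not in endotoxin-treated cells (q = 0.0752). The mean signal of MMP1, 4.72, lay below the median of 5.3 over all values. These 4 genes stayed called at 4 hps against vehicle of the other times, at 2.15, 1.08, 1.24 and 0.32 for CCL4, IL8, IL1B and MMP1, where 0.645% of all probe sets were called higher and 0.653% lower. In that comparison VIM, an intermediate filament gene, was called lower, at -0.36 ± 0.055 (q = 0.00314), named after its values were seen, and the list median was -0.011. On the mean of 1, 2 and 8 hps 5 were called, beside 0.258% of all probe sets called higher, the fifth being PTGS2, the inducible prostaglandin synthase, at 0.54 ± 0.10 (q = 0.0337), named after its values were seen. These genes are also known to answer to NF-kB and other factors, and the binding of AP-1 to them was not measured.

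**Figure D5:**
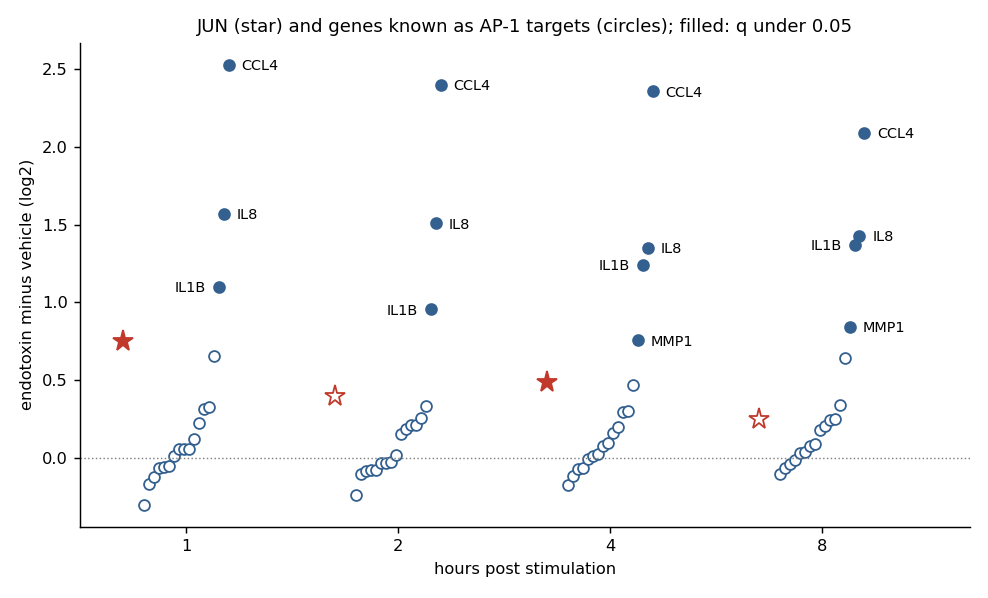
Endotoxin minus vehicle (log2, y axis) by hours post stimulation (x axis: 1, 2, 4 and 8) for JUN (red star) and for 18 genes known as AP-1 targets in mammals (blue circles, in rising order within a time), filled for q under 0.05. CCL4, IL8 and IL1B are filled at each time, between 0.96 and 2.53, while JUN is filled at 1 and 4 hps.

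Of 12 measured genes listed from general knowledge as ATF4 targets, none was called for endotoxin at any time on its brightest probe set by limma's q. At 4 hps 3 of the 12 had an unadjusted p under 0.05, beside 8594 of all 38439 probe sets, and none had at the other times. Some probe set was called higher at 4 hps for 2 of the 12, beside 10.3% of all genes. The median differences of the 12 were -0.059, 0.031, 0.0045 and 0.050 at 1, 2, 4 and 8 hps. Over time 5 of the 12 were called in endotoxin-treated cells and 3 in vehicle-treated cells, beside 10.9% and 7.55% of all probe sets. Those shares are over all probe sets, dim ones included, and not over genes on their brightest probe set. Among the genes called was CHAC1, a glutathione-degrading enzyme (q = 0.000646 in endotoxin-treated cells, q = 0.00182 in vehicle-treated cells), which was picked out after its values were seen.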

How the data were processed

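Affymetrix chicken genome arrays, 20 in number, hybridized RNA of HD11 cells from 4 times, each with 3 arrays for endotoxin and 2 for vehicle. The values deposited by the authors are log2 expression levels made with RMA (background correction, quantile normalization and median polish), which pulls array distributions together. A further deposited table supplied the gene name of each probe set (25795 have 1 name, 671 several and 11973 none). Its other columns, the authors' own log2 ratios and q values, were not used. Probe intensities and scan records were not analysed here. No counts lie behind array values, so their precision is limited by the number of arrays.

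With limma 3.58.1 under R 4.3.3, a term for each of the 8 groups and a fixed term for replication were fitted to 38439 probe sets, without the 96 controls of the maker (10 residual and 5.13 prior degrees of freedom). P values became q values by a histogram method with 20 bins, called at q under 0.05. At 4 hps this called 3106 probe sets, far more than the paper reports for that time. Benjamini-Hochberg adjustment called 1778 there, so the q used here was the looser of the 2 at 4 hps. The paper also fitted a fixed effect of replication, and the replication numbers were taken to pair the arrays. Its array methods and the sample labels give no day for a replication. The difference between replications 1 and 2 with endotoxin correlated with that in vehicle at -0.141, 0.236, 0.0684 and 0.113 for 1, 2, 4 and 8 hps. These correlations were low, so the pairing rests on the replication numbers and was not shown by the values. Replication 3 had no vehicle-treated array, so its term rests on endotoxin-treated arrays alone. A gene with several probe sets is represented in lists by the one with the highest mean. No 2 arrays were copies of each other, the highest correlation being 0.998. The steps were tested on simulated arrays.

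The members and the 6 gene lists were chosen with earlier results of these data known. Every member was described, with values per array for those called or brightest for their gene. From each list, genes called at any time on their brightest probe set were named, up to 6 by lowest q, and the 5 genes most like JUN by correlation of group means. Sequences of the genes were not used here.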

Additional observations from a re-analysis of the deposited data

How the results depend on the processing

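Fits were repeated without the replicate block, with it as a random effect, with Benjamini-Hochberg adjustment, trend and robust options, array weights, the brighter 19220 probe sets, ribosomal protein centring, cyclic loess, the arrays of 1 time alone, other vehicle arrays as reference, and each replication or array left out. Leaving out the vehicle-treated arrays at 4 hps, or the replication 3 endotoxin arrays of 1 and 2 hps, was chosen after seeing the data. The causes of the changes below were not tested. No member was called at 2 hps, at 8 hps or for the interaction under any alternative.

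Without the replicate block the members called numbered 0 at 1 hps, 0 at 4 hps, 0 for the mean of 1, 2 and 8 hps, 1 over time in endotoxin-treated cells (ATF3) and 0 over time in vehicle-treated cells, against 1, 4, 1, 4 and 2 with it. With the replicate block as a random effect they numbered 0, 0 and 0 for the first 3 and 1 over time in vehicle-treated cells (ATF3). At 1 hps the count was 0 with the arrays of that time alone and without the vehicle-treated arrays at 4 hps. At 4 hps it was 2 (JUN and probe set 3 of ATF2) with Benjamini-Hochberg adjustment, array weights, cyclic loess, and without the replication 3 endotoxin arrays of 1 and 2 hps. It was 0 with the arrays of 4 hps alone, with vehicle of 1, 2 and 8 hps as comparator, and without those of 4 hps. ATF3 at 4 hps changed sign, to -0.13, in both of these last settings. Over time in endotoxin-treated cells the count was 7 among the brighter probe sets and 2 (JUN and ATF3) without the replication 3 endotoxin arrays of 1 and 2 hps.

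With 1 replication or array left out, the counts ranged over 0 to 1 at 1 hps, 0 to 4 at 4 hps, 0 to 1 for the mean, 0 to 4 over time in endotoxin-treated cells and 0 to 3 over time in vehicle-treated cells. The JUN call at 1 hps was lost without replication 1 (q = 0.849) or 2 (q = 1), and without any of 4 of the 5 arrays of that time (q between 0.107 and 0.536), replication 3 of endotoxin being the exception. It was also lost, with q between 0.0505 and 0.0589, without endotoxin 2 hps replicate 1, endotoxin 8 hps replicate 3, or either vehicle array of 2, 4 or 8 hps. Its difference stayed between 0.59 and 0.88. The JUN call for the mean was lost only without replication 1 (q = 0.346) or 2 (q = 1). At 4 hps all 4 calls were lost without replication 1, replication 2 or vehicle 4 hps replicate 1, where the q of JUN was 0.194, 0.153 and 0.119. Without vehicle 4 hps replicate 2 only probe set 3 of ATF2 was called (q of JUN 0.0715). The count at 4 hps was 2 without replication 3, endotoxin 1 hps replicate 3, any endotoxin array of 4 hps, or endotoxin 8 hps replicate 3. Over time in endotoxin-treated cells no member was called without replication 2 (q of ATF3 0.111), and JUN and ATF3 were called without replication 3, endotoxin 8 hps replicate 1 or endotoxin 8 hps replicate 3. Over time in vehicle-treated cells neither was called without replication 1 or 2 (q of ATF3 0.206 and 0.185), and JUN was lost without vehicle 8 hps replicate 2 (q = 0.0902). Of the 23 such fits, probe set 2 of ATF4 was still called at 4 hps in 5, ATF3 at 4 hps in 13, probe set 3 of ATF2 and JUN at 4 hps in 19 each, FOSL2 over time with endotoxin in 15 and BATF3 in 18.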
